A study of Mus musculus with 4 samples.

Results

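The genes described here make or sense prostaglandins and leukotrienes, the signalling lipids derived from arachidonic acid. The set was given as 10 gene symbols: Pla2g4a, Ptgs1, Ptgs2, Ptges, Alox5, Alox5ap, Ltc4s, Lta4h, Ptger2 and Ptger4. Members were the probe sets annotated with 1 of these symbols, which gave 11 probe sets of 9 genes among 17330 named genes on the array. No probe set used here carried the symbol Ptgs1, so this gene has no value below. Expression was measured once in each of 4 groups of mouse type 1 conventional dendritic cells (cDC1), the dendritic cells that take up dead cells and present the antigens to CD8 T cells. Cells of wild-type (WT) or XCR1-deficient (KO) C57BL/6 mice, female per the labels and 10 weeks old, were exposed to lipopolysaccharide (LPS, 100 ng/ml) alone or to LPS with recombinant mouse XCL1 (100 ng/ml), the chemokine ligand of XCR1. Thus every group had received LPS, no group was untreated, and the effect of LPS itself cannot be read from these arrays. The tissue of origin, the length of exposure, the kind of XCR1 deletion and any pooling of animals are not stated in the labels.

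Cytosolic phospholipase A2 frees arachidonic acid from membranes. Cyclooxygenases turn it into prostaglandin H2, from which a terminal synthase makes prostaglandin E2, and 5-lipoxygenase with its helper protein turns it into leukotriene A4, the precursor of leukotriene B4 and of the cysteinyl leukotrienes. In dendritic cells, LPS is known to induce the cyclooxygenase Ptgs2, and prostaglandin E2 acts back on these cells through the cAMP-raising receptors EP2 and EP4, with known effects on maturation, cytokine output and migration.

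Ptgs2 and Ptges encode the inducible pair of enzymes that act one after the other on the way to prostaglandin E2. Their upstream sequences are shown because, with the deposited scaling, only these members past the signal limit were lowest in WT with XCL1 added. Each run is the 250 bases before the RefSeq transcript start, read 5′ to 3′ on the coding strand of GRCm38.p6, for Ptgs2 at chr1:150099781-150100030 (plus strand) and for Ptges at chr2:30903298-30903547 (minus strand). Capitals mark the GC box GGGCGG and the C/EBP palindrome TTGCGCAA, searched on both strands.
Ptgs2: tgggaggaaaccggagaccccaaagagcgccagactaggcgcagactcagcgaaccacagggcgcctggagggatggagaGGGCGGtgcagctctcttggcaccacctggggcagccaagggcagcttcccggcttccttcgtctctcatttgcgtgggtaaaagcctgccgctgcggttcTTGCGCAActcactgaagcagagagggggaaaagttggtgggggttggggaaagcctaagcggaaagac
Ptges: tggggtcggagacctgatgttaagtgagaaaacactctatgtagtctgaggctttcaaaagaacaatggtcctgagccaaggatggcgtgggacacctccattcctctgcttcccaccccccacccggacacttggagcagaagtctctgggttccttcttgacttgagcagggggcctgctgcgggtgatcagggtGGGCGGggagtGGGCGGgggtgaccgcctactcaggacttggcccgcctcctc
The Ptgs2 window held 1 GC box, at -170 to -165, and the C/EBP palindrome at -69 to -62 relative to the start. The short cAMP response element ACGTCA (13 to 18) and the E-box CACGTG (17 to 22) followed the RefSeq start used here, outside the printed run, and overlapped each other. Positions counted from another transcript start would differ. The Ptges window held 2 GC boxes, at -53 to -48 and -42 to -37, and none of the other 3 motifs. Of 32817 RefSeq windows of 300 bases, 35.6% held the GC box, 7.51% the cAMP element, 7.15% the E-box and 0.183% the C/EBP palindrome. The same search found 1 GC box before Alox5 and 4 before Ptger4, and no match in the windows of Ltc4s, Lta4h, Pla2g4a, Ptger2 and Ptgs1. These matches are descriptions of letters, and no measurement here shows a factor at them.

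All values are log2 signals computed by RMA, which makes the arrays' distributions alike, or differences between such signals. Each group had 1 array, so differences carry no error and no test, and the number of arrays limits the precision. A gene was counted as higher or lower where a difference reached 1.5-fold (0.58 on the log2 scale), among the 11086 named genes whose signal on at least 1 array reached a limit of 5.43 (the median of the whole table). Across those genes the arrays correlated at 0.983 to 0.993 (Pearson's r, genes not being independent replicates). Over 442 genes with several probe sets, a single probe set's difference had an SD of 0.179 to 0.232, depending on the pair, which is a spread between probes and not between mice. The targeted gene, Xcr1, differed between KO and WT by -0.87 (LPS) and -2.08 (LPS and XCL1), the direction of the labels. The prefixes of the array names, 2 in all, differed between the genotypes. The labels do not say what the prefixes mark, so anything that goes with them cannot be told apart from the genotype.

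Of the 9 genes with a probe set, 8 passed the limit and 1, Ptger2, did not. None of the 8 differed 1.5-fold in any of the 4 pairs of arrays. The range of each gene over the 4 arrays ran from 0.16 for Ptger4 to 0.56 for Lta4h.

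**Figure D1:**
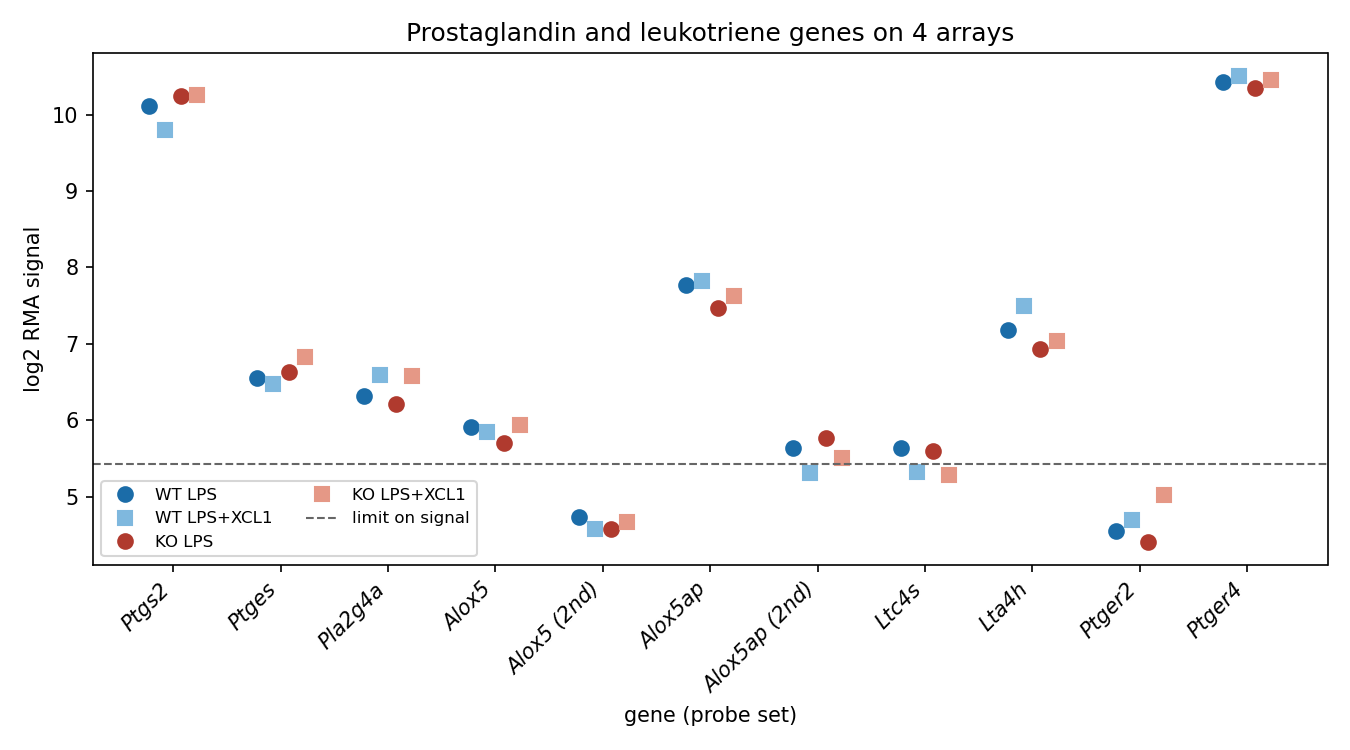
Log2 RMA signal (vertical axis) of each probe set of the prostaglandin and leukotriene genes (horizontal axis), with 1 point per array. Circles are LPS alone, squares LPS with XCL1, blue WT and red KO, and the dashed line is the limit of 5.43. The 4 points of a gene lie close together, and those of Ptger2 lie below the line.

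Of the enzymes that lead to prostaglandin E2, Pla2g4a, the cytosolic phospholipase A2 that starts the cascade, gave 6.32 in WT with LPS, 6.59 in WT with LPS and XCL1, 6.21 in KO with LPS and 6.58 in KO with LPS and XCL1. Its signals were above both arrays without XCL1 in the 2 arrays with XCL1, whichever the genotype. The difference with XCL1 was 0.27 in WT and 0.37 in KO, and these pairs share no array. Between the genotypes Pla2g4a differed by -0.11 (LPS) and -0.01 (LPS and XCL1).

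Ptgs2, the inducible cyclooxygenase, gave 10.11 in WT with LPS, 9.79 in WT with LPS and XCL1, 10.24 in KO with LPS and 10.26 in KO with LPS and XCL1. The WT array with XCL1 was the low one, and the other 3 lay between 10.11 and 10.26. XCL1 thus went with a difference of -0.32 in WT and 0.02 in KO. Of all genes past the limit 7.59% differed at least as far in the WT pair, and the value lay within their central 95% (-0.357 to 0.37). Among 3095 genes with a mean signal of at least 8, which vary less than dim genes, 1.2% did so. Ltc4s (-0.32) and Lta4h (0.31) differed about as far in this pair. KO exceeded WT by 0.13 with LPS and by 0.46, or 1.38-fold, with LPS and XCL1. With that of Lta4h (-0.46), the second value was the largest genotype difference among the 8 genes. Of the same bright genes 5.75% differed at least as far, and of all genes past the limit 7.9%.

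Ptges, the inducible terminal synthase of prostaglandin E2, gave 6.55 and 6.47 in WT without and with XCL1, and 6.63 and 6.82 in KO. As with Ptgs2, the WT array with XCL1 was lowest and the KO array with XCL1 highest. The genotype difference was 0.09 with LPS and 0.35, or 1.28-fold, with LPS and XCL1. The difference with XCL1 was -0.08 in WT and 0.19 in KO, smaller than the SD between probe sets in each pair (0.179 and 0.206).

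Both measured prostaglandin E2 receptors couple to cAMP production. Ptger4, which encodes EP4, gave 10.42 and 10.50 in WT and 10.34 and 10.45 in KO, without and with XCL1. These signals were close to one another on all 4 arrays, with differences from -0.08 to 0.11 in the 4 pairs. Ptger2, which encodes EP2, gave 4.55 and 4.70 in WT and 4.41 and 5.02 in KO, all below the limit of 5.43. Its difference with XCL1 in KO was 0.61, past 1.5-fold, but lies between signals below the limit and was not counted, so EP2 has no usable comparison here.

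In the leukotriene arm, Alox5, which encodes 5-lipoxygenase, gave 5.91 and 5.85 in WT and 5.70 and 5.94 in KO, without and with XCL1. The KO array with LPS alone was the low one. The genotype difference was -0.21 with LPS alone and 0.09 with XCL1 added. The difference with XCL1 was -0.06 in WT and 0.24 in KO. A second probe set of Alox5 stayed below the limit on all arrays and gave -0.15 and 0.10 between the genotypes, the same signs as the first.

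Alox5ap encodes the helper protein FLAP, which presents arachidonic acid to 5-lipoxygenase. It gave 7.77 and 7.83 in WT and 7.47 and 7.62 in KO, without and with XCL1, so both KO arrays were below both WT arrays. The genotype differences were -0.31 and -0.20. A second probe set, with signals from 5.30 to 5.77, gave 0.13 and 0.20, the opposite direction, and it disagreed on XCL1 as well, at -0.33 in WT and -0.26 in KO against 0.05 and 0.16 for the first. No direction is given for Alox5ap for this reason.

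Ltc4s, the synthase that joins leukotriene A4 to glutathione and so opens the cysteinyl branch, gave 5.64 and 5.33 in WT and 5.59 and 5.28 in KO, without and with XCL1. Both arrays with XCL1 were below the limit and both without it above it. The difference with XCL1 was -0.32 in WT and -0.31 in KO, from 2 pairs with no array in common. Raising dim signals to the limit made these differences -0.21 and -0.16, and between the genotypes Ltc4s differed by -0.05 and -0.04.

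Lta4h, the hydrolase that makes leukotriene B4, gave 7.18 and 7.50 in WT and 6.93 and 7.04 in KO, without and with XCL1. The KO arrays were below the WT arrays in both treatments. KO minus WT was -0.25 with LPS, and with XCL1 added it was -0.46, or 1.37-fold. With XCL1 the signal differed by 0.31 in WT and 0.11 in KO.

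**Figure D2:**
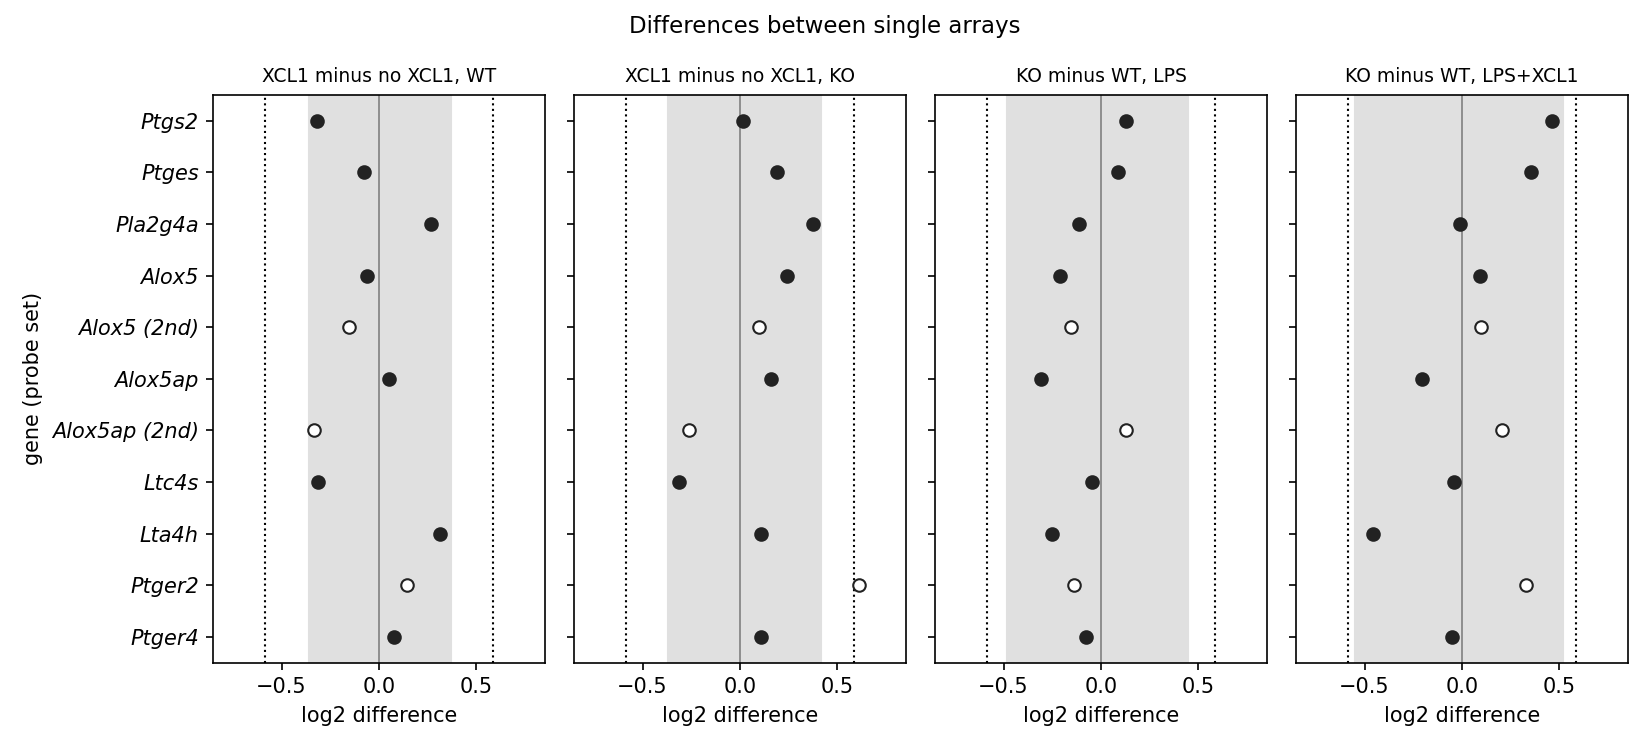
Log2 difference (horizontal axis) of each probe set (vertical axis) in the 4 pairs of arrays. Filled points are the probe sets used, open points are second probe sets and Ptger2, the grey band holds the central 95% of all 11086 genes and dotted lines mark 1.5-fold. The open point of Ptger2 in the second panel is the only one past a dotted line.

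Set against all genes, the question of what XCL1 adds to LPS in cells with its receptor had few calls of any kind. With XCL1 in WT, 0 of the 8 genes reached 1.5-fold, where 0.577% of all genes did. Their median difference was -0.004, beside 0.029 for all genes, with 4 genes above and 4 below 0. In cells labelled as lacking that receptor, 0 of 8 reached it too, beside 1.04% of all genes, and 7 of 8 were above 0 (all genes, 59.7%) with a median of 0.13 beside 0.04. At background shares this low, a count of 0 among 8 genes says little about them. The XCL1 effect in WT minus that in KO was -0.33 for Ptgs2, -0.30 for Alox5, -0.27 for Ptges and 0.21 for Lta4h, and 0 of 8 reached 1.5-fold beside 2.93% of all genes.

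More genes differed between the genotypes, but at shares still so low that a count of 0 among 8 genes says little about the members. With LPS, 0 of 8 reached 1.5-fold beside 2.05% of all genes, with a median of -0.10 beside -0.05. With LPS and XCL1, 0 of 8 did so beside 3.49%, with a median of -0.03 beside -0.04. In both genotype pairs the same way, 0 of 8 were counted, beside 0.713% of all genes. Centring each array on its gene median adds 0.10 to each genotype difference and takes 0.07 from each XCL1 difference. It leaves Ptgs2 (0.23 and 0.56) and Ptges (0.19 and 0.46) above 0 and Lta4h (-0.15 and -0.36) below 0 in both genotype pairs, still within 1.5-fold.

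**Figure D3:**
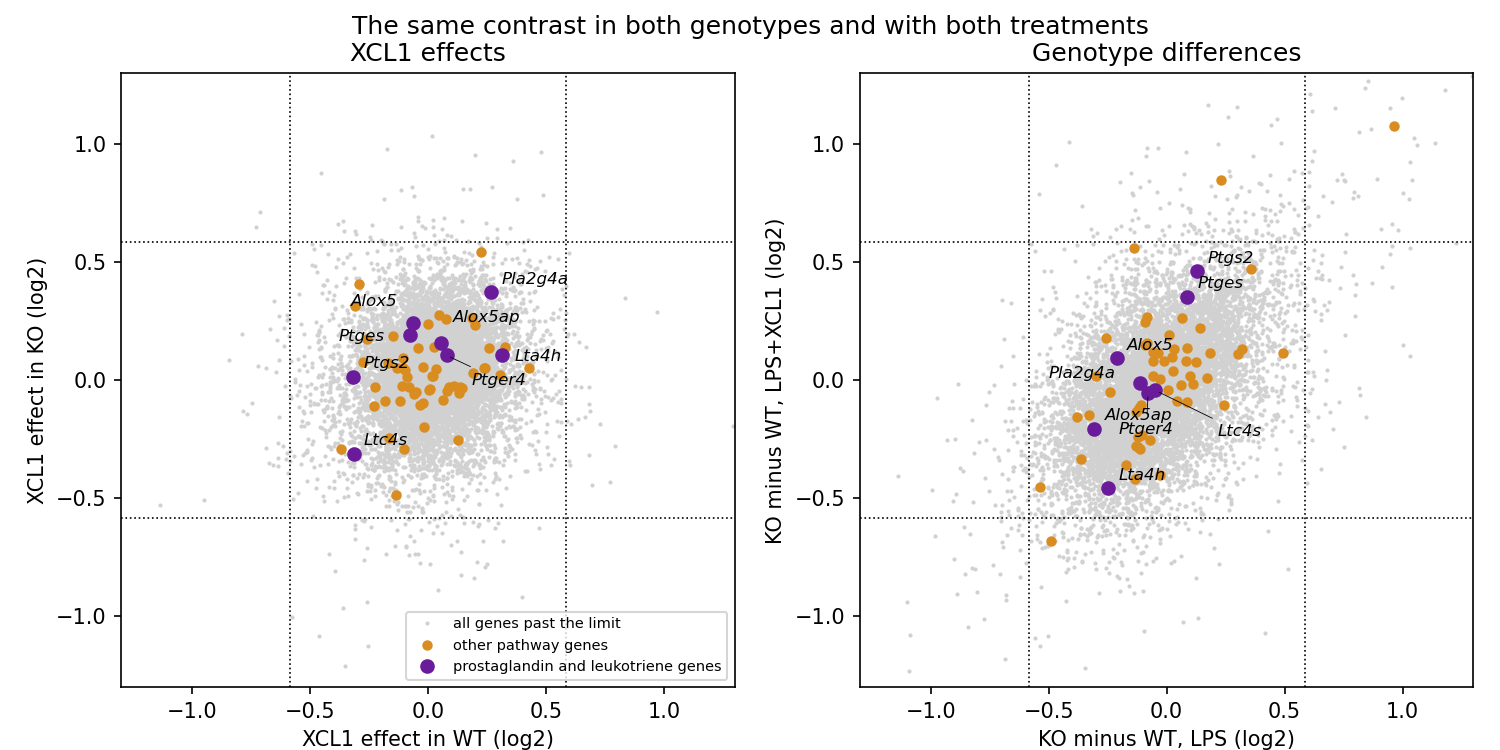
Log2 differences of the same contrast in pairs that share no array. On the left is the XCL1 effect in WT (horizontal axis) and in KO (vertical axis), on the right KO minus WT with LPS (horizontal axis) and with LPS and XCL1 (vertical axis). Purple points are the 8 genes past the limit, orange other pathway genes, grey all genes (1 and 11 of them lie outside the axes) and dotted lines 1.5-fold. The purple points lie inside the dotted square in both panels, with Ptgs2 and Ptges at the upper edge of the group on the right and Lta4h at the lower.

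The order of the arrays was looked at after the values were seen. Ptgs2 and Ptges, 2 of 8, were lowest in WT with LPS and XCL1, as 19.9% of all genes were, and highest in KO with LPS and XCL1. Of all genes 8.7% had this lowest and this highest array, and of 55 other genes of the pathway 7 did (12.7%), among them the thromboxane synthase Tbxas1, the prostacyclin receptor Ptgir and the cysteinyl leukotriene receptor Cysltr2. Pla2g4a, Alox5ap, Lta4h and Ptger4, 4 of 8, were highest in WT with LPS and XCL1 and lowest in KO with LPS. That was the most frequent order among all genes as well (19.8%). The highest array depends on the scaling. With each array centred on its gene median or with cyclic loess, Ptgs2 was highest in KO with LPS, and with centring only Lta4h of those 4 kept its order. Ptgs2 and Ptges were lowest in WT with LPS and XCL1 under each alternative that kept them. With centring, Alox5 and Ltc4s were lowest on that array too.

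Wider lists of the pathway held 77 further genes with a probe set, of which 55 passed the limit. In both XCL1 pairs 0 of them reached 1.5-fold. Between the genotypes 1 of 55 was higher and 0 lower with LPS (all genes, 1.03% and 1.02%), while 2 were higher and 1 lower with XCL1 added (all genes, 1.69% and 1.8%). The gene higher in both pairs was Prkar2b, a regulatory subunit of the cAMP-dependent kinase that acts below EP2 and EP4, at 6.15 and 6.17 in WT and 7.11 and 7.25 in KO. The other called genes were Dpep2 and Pla2g4f.

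Dpep2, a membrane dipeptidase that turns leukotriene D4 into leukotriene E4, gave 8.09 and 7.79 in WT and 8.32 and 8.64 in KO, without and with XCL1. Its genotype difference was 0.23 with LPS and 0.85 with LPS and XCL1. A second probe set of Dpep2, at 5.63 to 6.00, gave -0.36 and -0.12, so its direction rests on the probe set chosen. The XCL1 effect in WT minus that in KO passed 1.5-fold for Dpep2 (-0.62, and -0.24 for its second probe set) and for Tbxas1 (-0.70), 2 of 55 genes, a share near the 2.93% of all genes. Tbxas1, dim at 5.54 and 5.25 in WT and 5.40 and 5.81 in KO, differed by 0.56 between the genotypes with LPS and XCL1. Pla2g4f, another member of the cytosolic phospholipase A2 family, gave 7.35 and 7.59 in WT and 6.86 and 6.91 in KO, and differed by -0.49 and -0.68.

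Of 15 genes past the limit that release or re-esterify arachidonic acid, 7 were above 0 in KO minus WT in each pair (all genes, 39.8% and 43.2%), with Acsl4, an arachidonate-preferring acyl-CoA synthetase, at 0.03 and 0.04 and Pla2g3 at 0.24 and -0.11. The 7 terminal prostanoid synthases past the limit had medians of -0.01 with LPS and 0.08 with LPS and XCL1, beside -0.05 and -0.04 for all genes. None reached 1.5-fold, and Ptges3 lay at 0.01 with LPS and XCL1. Abcc4, a prostaglandin exporter, differed by -0.09 and 0.15, Ptgir by -0.09 and 0.25, and the thromboxane receptor Tbxa2r by -0.06 and 0.12. The lipid receptor Fpr2 gave -0.08 and 0.27.

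Of genes around 5-lipoxygenase, Cotl1, which encodes a coactosin-like protein that binds the enzyme, gave 7.84 and 7.73 in WT and 7.31 and 7.28 in KO, differences of -0.54 and -0.45. The peroxidase Gpx4, which lowers the hydroperoxide tone that 5-lipoxygenase needs, lay at 0.05 and -0.09. Of the leukotriene enzymes, Mgst3 differed by 0.49 and 0.12 and the leukotriene C4 exporter Abcc1 by -0.13 and -0.14. In the cAMP list 1 of 16 genes past the limit, Prkar2b, was called in each genotype pair, beside 2.05% and 3.49% of all genes. Prkaca, a catalytic subunit of the kinase, gave -0.17 and -0.36, but a second probe set, below the limit on all arrays, gave 0.34 and 0.12, so no direction is given for it. Nr4a3, a cAMP-responsive nuclear receptor, lay at 0.004 and -0.04.

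**Figure D4:**
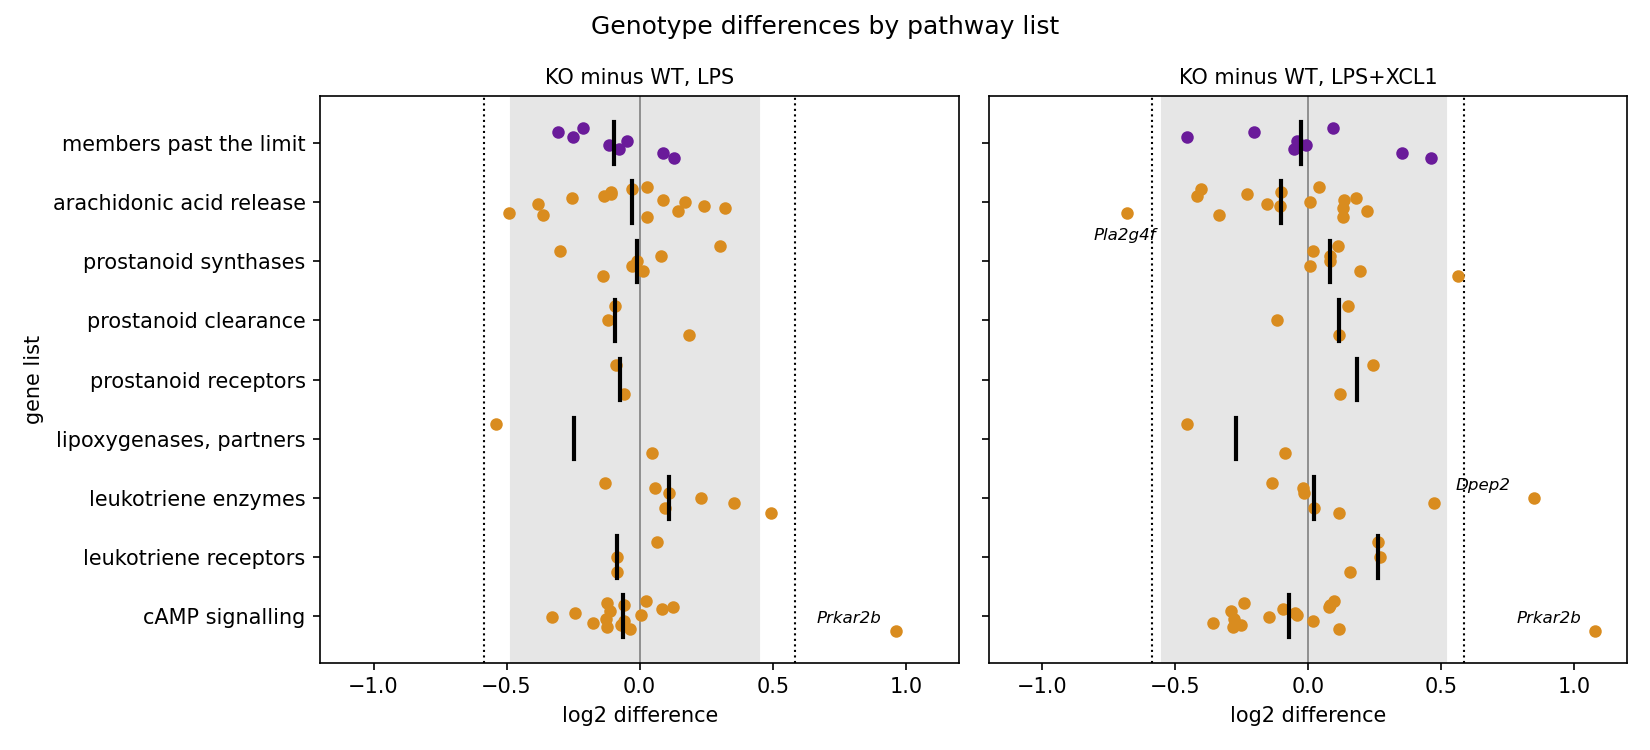
Log2 KO minus WT difference (horizontal axis) of genes past the limit in each pathway list (vertical axis), with LPS on the left and with LPS and XCL1 on the right. Points are genes, black bars list medians, the grey band holds the central 95% of all genes and dotted lines mark 1.5-fold. The genes named in the panels, Prkar2b, Dpep2 and Pla2g4f, lie past a dotted line, and the purple points do not.

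Several members are also known from other myeloid cells, platelets and mast cells, so markers of these cells were read on the same arrays. In such bulk samples, fewer cells of a type and less RNA per cell cannot be told apart. Of 12 cDC1 markers 11 had a probe set, and 9 to 10 reached the limit on each array, with Ly75 at 11.88 to 12.01. The level of a list is given here as the plain mean of the log2 signals of its markers with a probe set, also those below the limit. For cDC1 markers this mean was 8.36 and 8.44 in WT and 8.25 and 8.23 in KO. This list holds the targeted gene Xcr1, and the other 10 markers had means of 8.56 on both WT arrays, 8.52 in KO with LPS and 8.54 in KO with XCL1 added.

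Macrophage and monocyte markers reached the limit in 12 of 13 cases, with means of 7.30 and 7.28 in WT and 7.41 and 7.49 in KO. Fcgr1 (1.00 and 1.19) was the only 1 of 12 counted as higher in KO, beside 1.03% and 1.69% of all genes. In each genotype pair 8 of 12 were above 0 (all genes, 39.8% and 43.2%) and 4 below. Csf1r gave -0.32 and -0.16, and Ly6c2, at 11.01 to 11.16, gave -0.11 and -0.03. Neutrophil markers reached the limit in 9 of 11 cases, with means of 6.67 and 6.69 in WT and 6.93 and 7.02 in KO. The defining marker Ly6g stayed at 4.11 to 4.31, below the limit. With LPS and XCL1, 3 of the 9 past the limit were higher in KO (S100a8 by 1.11, Ltf by 0.78 and S100a9 by 0.71), beside 1.69% of all genes. These 3 were highest in KO with LPS and XCL1 and lowest in WT with LPS and XCL1, the order of Ptgs2 and Ptges. Of all genes 8.7% had this order, and the other neutrophil markers past the limit had other orders. It was not limited to neutrophil markers. The cDC1 markers Irf8 and Ly75 and the macrophage markers Mertk, Marco and Fcgr1 had it too. So did Kit of the mast cell list, Itga2b of the platelet list and Ermap of the erythroid list. The rest of these lists past the limit had other orders. Mast cell and basophil markers reached the limit in 2 to 4 of 8 cases, with means of 5.56 and 5.55 in WT and 5.68 and 5.75 in KO. Of these, Kit (9.13 to 9.54) and Hdc (0.79 and 0.80 between the genotypes) were above the limit on every array, while Fcer1a (at most 3.25) and Ms4a2 (from 4.50 upward) stayed below it. Platelet markers reached it in 2 to 3 of 5 cases, with means of 5.28 and 5.40 in WT and 5.61 and 5.43 in KO and Pf4 at 4.45 to 4.74.

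Lymphoid and erythroid markers differed further between the genotypes. B cell markers reached the limit in 10 of 10 cases on every array, and had means of 7.97 and 8.04 in WT and 7.45 and 7.47 in KO. In both genotype pairs 10 of 10 were below 0 (all genes, 60.1% and 56.8%), and Fcer2a, Cd79b and Cr2 were counted as lower. Of all genes 0.713% were counted the same way in both pairs, the background for this list and for the T and NK cell and erythroid lists. T and NK cell markers reached it in 6 to 8 of 9 cases and had means of 6.54 and 6.52 in WT and 6.15 and 6.03 in KO, with Cd3g and Cd3e lower in both pairs. Erythroid markers reached it in 2 to 4 of 6 cases and had means of 5.49 and 5.42 in WT and 6.29 and 6.27 in KO, with Slc4a1, Car1 and Rhag higher in both. The cDC2 markers reached the limit in 4 of 7 cases and had means of 6.37 and 6.36 in WT and 6.32 and 6.53 in KO. Irf4 (8.39 to 8.65) gave -0.24 and -0.25 between the genotypes, while Cd209a gave -0.01 and 0.62 and Itgam 0.08 and 0.55. Cd209a and Itgam had the array order of Ptgs2 and Ptges, as 8.7% of all genes did. Irf4 and Sirpa (-0.34 and -0.01), the other cDC2 markers past the limit, had other orders. Plasmacytoid DC markers reached it in 7 of 7 cases and had means of 8.62 and 8.67 in WT and 8.54 and 8.57 in KO, which cover differences in both directions. With LPS and XCL1, 1 of 7 was higher in KO, Bst2 (9.52 to 10.79) by 0.78, and 1 was lower, Ly6d at -1.22. Of all genes 1.69% were higher and 1.8% lower. With XCL1 in KO, Bst2 differed by 0.97 and Ly6d by -1.12. Between the genotypes, without and with XCL1, Siglech gave -0.52 and -0.57, and Ccr9 gave -0.58, just short of 1.5-fold, and -0.49. Klk1 (0.55 and 0.47) and Tcf4 (0.16 and 0.31) went the other way. The part of other cells in the genotype differences of Ptgs2, Ptges, Lta4h, Dpep2 and Prkar2b was not tested.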

How the data were processed

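RNA from 4 groups of cells, 1 sample each, was labelled with biotin and hybridised to MoGene-2_0-st gene arrays. Each deposited value is the log2 signal of a gene-level probe set, made by RMA per the labels' descriptions. RMA software and annotation build: not given in the sources used here. Of 41345 probe sets, 23521 had 1 gene symbol in the platform annotation, 1814 had several and 16010 were unnamed here. Gene IDs of 23328 matched a RefSeq table (GRCm38.p6). Probe sets with several symbols and 4850 genes (predicted genes, small RNAs, antigen and olfactory receptors) were left out, and the probe set with the highest mean stood for a gene. Differences between single arrays were computed in Python 3.11.15 with no test. Only the counting procedure was checked, on simulated arrays with a set noise. A true change near 1.5-fold can be missed by it. Sequences came from the RefSeq promoter table, which held 10 windows of 9 members and none of Alox5ap. Named genes were the members, pathway genes at 1.5-fold in any pair, the brightest and the most different gene of each pathway list, the brightest marker of each list, and markers at 1.5-fold in both genotype pairs. Cysltr2, markers named as below the limit, and S100a8, S100a9, Ltf, Cd209a, Itgam, Sirpa and Ly6d were chosen after their values were seen. So were Irf8, Mertk, Marco, Csf1r, Itga2b, Ermap, Siglech, Ccr9, Klk1 and Tcf4. The members and lists were chosen with earlier results of these data known. The 9 alternatives were another fold threshold, 2 other limits on signal, quantile and cyclic loess normalization (limma 3.58.1), centring, the mean of probe sets, all genes kept, and dim signals raised to the limit.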

Additional observations from a re-analysis of the deposited data

Results flagged for a closer look

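With 1 array in each group, a contrast is picked out here when its sign differed between the genotypes or between the treatments, and no such difference was tested. Among all genes the sign of the XCL1 effect differed between WT and KO in 43.6% and the sign of the genotype difference between treatments in 32.3%, beside 3 and 1 of the 8 members, so opposite signs are common in these data. The values are the XCL1 effect in WT minus that in KO. Of the members, Ptgs2 (-0.33), Ptges (-0.27) and Alox5 (-0.30) had opposite signs of the XCL1 effect, and Alox5 of the genotype difference too. For Ptgs2 the effect in KO was only 0.016, and with cyclic loess (-0.016) and centring (-0.052) its sign was no longer opposite. Of the named pathway genes, the XCL1 effect had opposite signs for Tbxas1 (-0.70), Dpep2 (-0.62), Mgst3 (0.38), Fpr2 (-0.35), Ptgir (-0.34), Abcc4 (-0.24), Tbxa2r (-0.18), Gpx4 (0.13) and Nr4a3 (0.05). The genotype difference had opposite signs for these genes except Dpep2 and Mgst3, and also for Pla2g3 (0.35) and Ptges3 (-0.03).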

How the results depend on the processing

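Counts of members past the threshold stayed at 0 in each of the 5 comparisons, and in both genotype pairs together, under the 9 alternatives with 1 exception. With no limit on signal, 1 member (Ptger2) was counted for XCL1 in KO. The 2-fold threshold and the stricter limit could not raise a count of 0. Of 335 member differences recomputed, 332 moved by less than the SD per probe set. Many of these could not move, because another threshold, another limit or keeping all genes leaves the members' signals unchanged. The 3 that moved farther were those of Alox5ap with the mean of its probe sets, at -0.14 for XCL1 in WT, -0.05 for XCL1 in KO and -0.09 for KO against WT with LPS, and the probe sets themselves disagree. Of 40 differences, 9 changed sign under at least 1 alternative, all of Alox5ap, Ltc4s, Ptger4, Pla2g4a or Ptgs2 (XCL1 in KO). The share of all genes called ran from 0.018% to 1.04% for XCL1 in WT (0.577% as reported), from 0.0541% to 1.48% for XCL1 in KO (1.04%), from 0.216% to 2.4% and from 0.397% to 4.05% for KO against WT without (2.05%) and with XCL1 (3.49%), and from 0.198% to 4.26% for the difference between the XCL1 effects (2.93%). The lowest came from the 2-fold threshold. The stricter limit on signal left 4 of the 8 members. With centring, 2 pathway genes in place of 1 were called for KO against WT with LPS. With the stricter limit, with the mean of probe sets and with dim signals raised, 1 in place of 2 was called for the difference between the XCL1 effects. With the 2-fold threshold 0 was called there, 0 in place of 1 for KO against WT with LPS and 1 in place of 3 with XCL1 added. Leaving out replicates was not possible with 1 array a group. No paired analysis was possible because the labels give no replicate numbers. Without detection flags, the limit on signal is no measured background.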
